A study of Mus musculus with 24 samples.

Results

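The effect of losing Tgfbr2 was examined in the distal end of the maxilla, the upper jaw primordium, of mouse embryos at embryonic day 12.5. The members are the 6 arrays of the series, out of 24, whose titles name the distal maxilla: 3 labelled Tgfbr2 knockout and 3 labelled control, each numbered 1 to 3. All 24 arrays are of strain background C57B6. The knockout embryos came from a cross of Wnt1-Cre carriers with 1 floxed Tgfbr2 allele to mice with 2 floxed alleles, and the controls were their littermates, whose genotypes the labels do not give. The series text says that mutants were recognised by cleft palate and a calvarial defect. Wnt1-Cre is active in neural crest, so the deletion is limited to cells derived from it, and epithelium, muscle, endothelium and blood keep the gene. The other 18 arrays come from the proximal maxilla and from the distal and proximal mandible, also 3 per genotype and region. The labels do not tell whether the arrays within a group stand for different embryos, so the p-values measure only the spread between these arrays. That spread may be technical between some arrays. Sex-linked genes, given below, show that control distal 2 held RNA of other embryos than the other distal controls.

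Tgfbr2 encodes the type II receptor that binds TGF-beta ligands and recruits and phosphorylates the type I receptor, Tgfbr1, which in turn phosphorylates Smad2 and Smad3. Cranial neural crest cells form the bone, cartilage, tendon and most of the connective tissue of the face, while the jaw muscles come from mesoderm. In the palate, TGF-beta signalling in neural crest mesenchyme is known to support the growth of the shelves, and its loss in these cells is known to cause cleft palate.

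The deposited values are log2 expression from RMA, a method that corrects background, normalises arrays to a common distribution and summarises the probes of a probe set. Array medians ranged from 7.257 to 7.38 in log2 units, and the 30th percentile, used here as the background level, lay between 5.845 and 5.93. Scanner intensities were not analysed here. The number of arrays limits the precision. A difference below is the knockout mean minus the control mean in log2 units, a mean carries its SD over 3 arrays, and SE is the standard error of the difference from the limma model. Genes were called at an adjusted p under 0.05.

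Markers of facial mesenchyme were present at high levels in all 6 arrays, among them the growth factor receptor gene Pdgfra at 13.02 to 13.26 and the homeobox gene Alx1 at 12.58 to 13.12. RNA of other cells was present as well, as shown by the embryonic globin gene Hbb-y at 14.27 to 14.48, the epithelial adhesion gene Epcam at 12.44 to 13.06, the neuronal gene Stmn2 at 11.67 to 12.67 and the glial gene Sox10 at 9.8 to 10.3. In such dissected tissue, fewer cells of a type and less RNA per cell cannot be told apart.

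The control array labelled distal 1 went against its label. For 41 genes, the proximal and distal control arrays numbered 2 and 3 differed by more than 2 log2 units, and each maxilla array was placed on a scale on which the proximal controls average 0 and the distal controls average 1. The array labelled control distal 1 had a median position of -0.11, while the array labelled control proximal 1 had 0.87. Control distal 2 and 3 had 0.94 and 1.06, knockout distal 1, 2 and 3 had 0.35, 0.41 and 0.71, and the knockout proximal arrays were at 0 to 2 decimals. Controls 2 and 3 both chose the genes and set the scale, so distal arrays outside that choice tend to lie below 1. The labels were kept, and results are given with and without the array labelled control distal 1. A second array stood apart in sex-linked genes: control distal 2 had Xist at 6.42 and the Y-linked Eif2s3y at 10.37, while the other 5 arrays had Xist at 13.77 or more and Eif2s3y at 3.77 or less. Control distal 2 thus held RNA of other embryos than the other controls. Over the 3 tested sex-linked genes, the mean deviation was 0.52 to 0.96 in the control arrays numbered 2 of all regions and negative in every other array. The main tests nonetheless treated same-numbered arrays as independent.

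The Tgfbr2 probe sets gave no lower transcript level that passed the test in the knockout arrays. The probe set with the highest mean read 11.82, 11.5 and 11.28 in control arrays 1 to 3 and 12.26, 11.7 and 11.3 in knockout arrays 1 to 3. The groups overlapped, and the difference was 0.21 (SE 0.2295, limma unadjusted p = 0.3618). A second Tgfbr2 probe set read 7.17, 6.89 and 7.06 in controls and 7.07, 6.98 and 7 in knockouts, a difference of -0.02. The last of the 3 lay below background, with a mean of 3.79 over all arrays. It read 3.9, 3.88 and 4 in controls and 3.58, 3.75 and 3.84 in knockouts, without overlap. Its difference was -0.2 (limma unadjusted p = 0.02045 in a fit of all probe sets). Where these probe sets lie with respect to the deleted sequence is not stated by the labels or files, so they do not check the labels.

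Of 14879 genes tested, 3 were called in the distal maxilla, which is 0.0202%: 2610524H06Rik and Rad51b rose (0.0134%) and H2az2 fell (0.00672%) in the knockout arrays. At an unadjusted p under 0.05 there were 395 genes, or 2.65%, of which 254 (1.71%) were higher and 141 (0.948%) lower. The differences were mostly small, with a median size of 0.071 against a median SE of 0.108. In 605 genes, or 4.07%, all 3 knockout arrays lay above all 3 controls, and in 422 genes, or 2.84%, they lay below, so that 6.9% of genes had groups without overlap. The difference was positive in 55.9% of genes, with a median over all genes of 0.01. The same test called 859 genes (5.77%) in the proximal maxilla, 20 (0.134%) in the distal mandible and 8 (0.0538%) in the proximal mandible.

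The calls rest on the spread shared by all 24 arrays: with the 6 distal maxilla arrays alone, or with the 12 maxilla arrays, no gene was called. Without the array labelled control distal 1 the count was also 0, as it was without control 2, control 3 or knockout 1. It was 3 without knockout 2 and 8 without knockout 3. Leaving out both control maxilla arrays numbered 1, an alternative added after the data were seen, gave 3 calls, of which 2610524H06Rik and Rad51b were among the original 3.

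**Figure D1:**
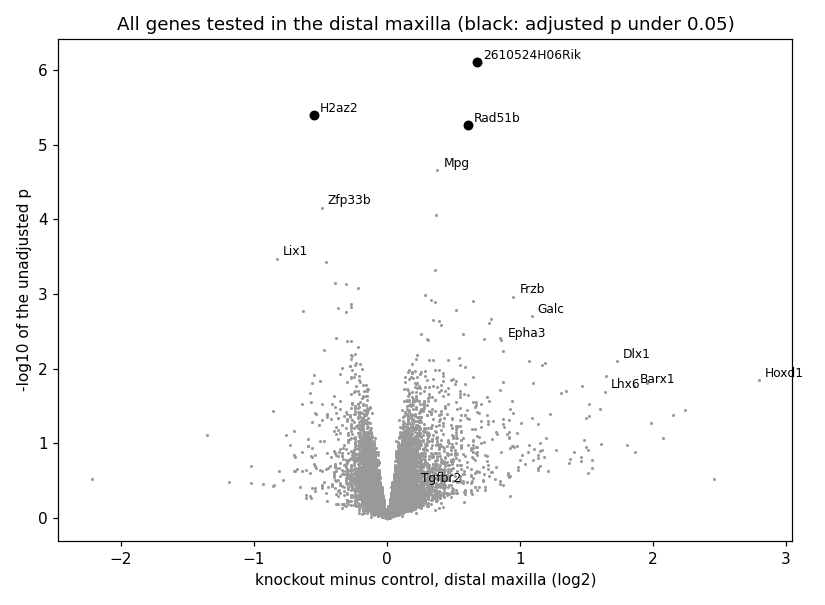
Each point is a gene of the distal maxilla comparison, with knockout minus control in log2 units on the x axis and -log10 of the unadjusted limma p on the y axis. The 3 black points, 2610524H06Rik, Rad51b and H2az2, passed the adjusted p of 0.05, while genes with larger differences such as Hoxd1 (2.80) and Barx1 (1.86) had smaller values on the y axis.

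The promoters of the 3 genes called are shown because these genes passed the adjusted p threshold in the main fit of the distal maxilla. Each runs 5′ to 3′ on the gene's strand from 250 bases before to 50 bases after the start, from RefSeq, build GRCm38.p6: chr11:6444394-6444693 on the minus strand for H2az2, chr5:114823419-114823718 on the minus strand for 2610524H06Rik, and chr12:79297032-79297331 on the plus strand for Rad51b, the first of 2 entries. Capitals mark CCAAT boxes, written CCAAT or, on the other strand, ATTGG.
H2az2: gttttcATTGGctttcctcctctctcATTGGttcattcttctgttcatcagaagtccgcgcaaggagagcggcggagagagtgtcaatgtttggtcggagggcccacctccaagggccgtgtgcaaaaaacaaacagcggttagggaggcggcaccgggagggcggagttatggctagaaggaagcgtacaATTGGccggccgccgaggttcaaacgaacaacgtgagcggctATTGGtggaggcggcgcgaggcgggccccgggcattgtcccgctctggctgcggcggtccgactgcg
2610524H06Rik: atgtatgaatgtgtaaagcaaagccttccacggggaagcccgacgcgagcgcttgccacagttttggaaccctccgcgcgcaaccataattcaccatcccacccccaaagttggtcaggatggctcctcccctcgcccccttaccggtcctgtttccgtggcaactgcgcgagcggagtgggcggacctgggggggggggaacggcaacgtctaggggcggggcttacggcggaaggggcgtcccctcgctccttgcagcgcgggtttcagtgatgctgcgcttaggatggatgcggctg
Rad51b: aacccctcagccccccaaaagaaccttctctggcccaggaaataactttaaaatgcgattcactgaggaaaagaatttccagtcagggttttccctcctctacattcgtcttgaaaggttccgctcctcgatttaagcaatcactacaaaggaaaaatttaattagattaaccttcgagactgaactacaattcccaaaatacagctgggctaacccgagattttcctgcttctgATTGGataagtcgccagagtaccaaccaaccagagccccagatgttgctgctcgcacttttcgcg
The H2az2 promoter holds 4 CCAAT boxes, the Rad51b promoter 1 and the 2610524H06Rik promoter 0. Over the promoters of 11905 genes tested, 38.2% hold at least 1 and 1.74% at least 4. The short SMAD box CAGAC, or GTCTG on the other strand, is in none of these 3 windows and in 48.5% of all promoters. With no SMAD box present, none overlaps a CCAAT box in these windows, and a match or its absence describes only these letters in these windows.

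H2az2 encodes H2A.Z.2, a variant of histone H2A that marks promoters and other regulatory chromatin. Its level was 13.52, 13.48 and 13.47 in the control arrays and 12.88, 13.04 and 12.9 in the knockout arrays. All 3 knockout arrays lay below all 3 controls. H2az2 fell by 0.55 in log2 units (SE 0.0852, limma adjusted p = 0.02752), from 13.49 ± 0.02 to 12.94 ± 0.09. Its other probe set was lower as well, with 10.17, 10.12 and 10.32 in controls and 8.99, 9.53 and 9.33 in knockouts, a difference of -0.92. The call was lost when probe sets were averaged or tested singly. The differences in the other regions were -0.63 in the proximal maxilla, -0.54 in the distal mandible and -0.54 in the proximal mandible. H2az2 was called in each of them (limma adjusted p = 0.001563, 0.01403 and 0.01854). RefSeq's gene table lists the Wnt1-Cre transgene among the synonyms of H2az2, and the labels do not say which controls carried Cre, so the transgene and the loss of Tgfbr2 cannot be told apart for this gene. Of the 6 measured genes of H2A variants, H2az2 was the only 1 called. H2az1, which encodes the sister protein H2A.Z.1, differed by -0.03 (SE 0.1103), and the macroH2A gene Macroh2a2 by -0.15 with knockouts below controls.

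2610524H06Rik, a little-studied gene with 1 probe set, read 9.86, 9.78 and 9.84 in controls and 10.61, 10.46 and 10.46 in knockouts. Every knockout array lay above every control array. It rose by 0.68 (SE 0.0932, limma adjusted p = 0.01155), a fold of 1.605. The other regions gave 0.68, 0.57 and 0.57 in the proximal maxilla, the distal mandible and the proximal mandible. It was called in each of them as well (limma adjusted p = 0.001563, 0.01403 and 0.02144). The difference of effects between the ends of the maxilla was 0 to 2 decimals (SE 0.1318).

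Rad51b encodes a protein that acts in the repair of DNA breaks by homologous recombination. Its higher probe set read 7.15, 7.22 and 7.34 in controls and 7.87, 7.72 and 7.95 in knockouts, with no overlap. It rose by 0.61 (SE 0.09697, limma adjusted p = 0.02752), from 7.23 ± 0.1 to 7.85 ± 0.11. In the other regions the differences were 0.19, 0.13 and 0.06, none of them called. The contrast of the distal maxilla against the mean of those regions was 0.49 (SE 0.112), with an unadjusted limma p of 0.0003849 and an adjusted p of 0.9994. The other Rad51b probe set, at 5.28 to 5.59 in the 6 arrays, lay below background and differed by 0.09, and the call was lost when probe sets were averaged or tested singly.

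**Figure D2:**
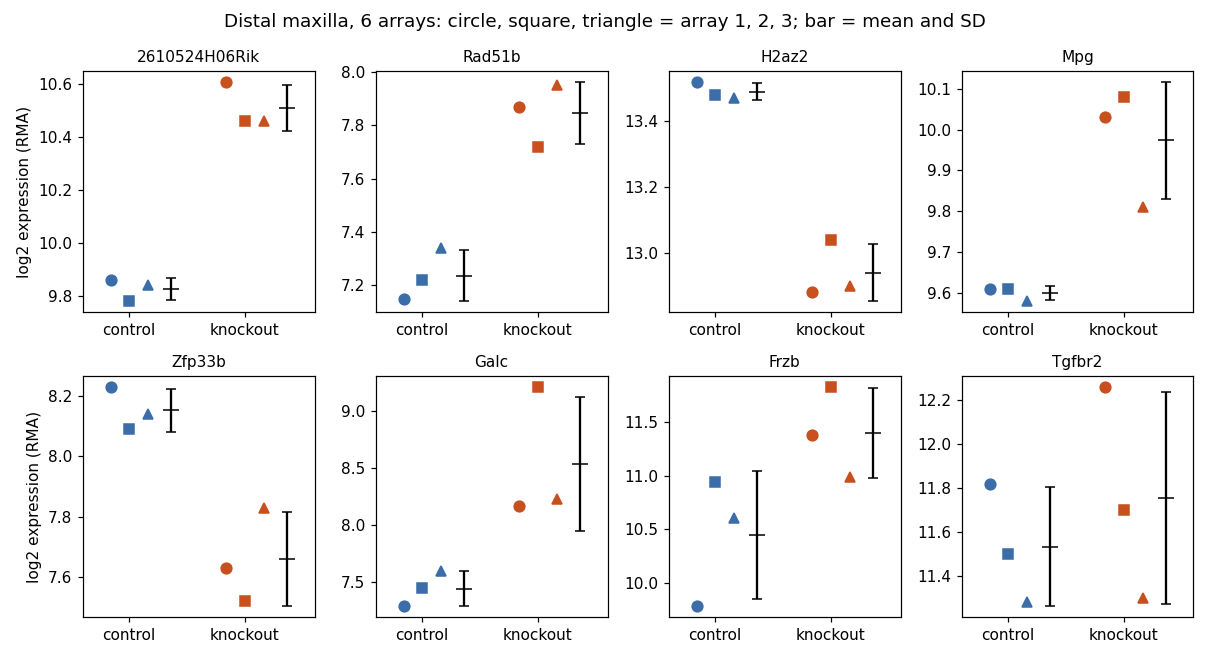
Log2 RMA expression of 8 genes in the 6 distal maxilla arrays, with controls in blue, knockouts in orange, array numbers 1, 2 and 3 as circle, square and triangle, and the mean and SD beside each group; the y axes are cropped and differ between panels. By the probe set of highest mean, the groups do not overlap for 2610524H06Rik, Rad51b, H2az2, Mpg, Zfp33b, Galc and Frzb, and overlap for Tgfbr2.

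The next genes in the order of p did not pass the test in the distal maxilla. Mpg, which encodes a DNA glycosylase that removes alkylated bases, read 9.61, 9.61 and 9.58 in controls and 10.03, 10.08 and 9.81 in knockouts. Its difference was 0.38 (SE 0.06662, limma adjusted p = 0.08185), with 0.35, 0.44 and 0.41 in the proximal maxilla, distal mandible and proximal mandible. Mpg was called in each of these other regions (limma adjusted p = 0.0127, 0.01403 and 0.02144). Its 2 other probe sets differed by -0.18 and 0.08, so the probe sets of Mpg disagreed in sign. Zfp33b, a zinc finger gene, read 8.23, 8.09 and 8.14 in controls and 7.63, 7.52 and 7.83 in knockouts. The limma model gave -0.49 (SE 0.09657, adjusted p = 0.2073), with -0.48, -0.39 and -0.58 elsewhere. Zfp33b was called in the proximal maxilla and the proximal mandible (limma adjusted p = 0.01527 and 0.02144) but not in the distal mandible. Stk32a, a serine/threonine kinase gene, read 5.71, 5.55 and 5.55 in controls and 5.92, 6.02 and 5.99 in knockouts, around background. Its difference was 0.37 (adjusted p = 0.2146).

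Among the other 9 genes of smallest p in the positive direction, Frzb had a difference of 0.95 (SE 0.2458) and Galc of 1.09 (SE 0.3019). Frzb encodes a secreted antagonist of Wnt ligands. It read 9.78, 10.94 and 10.61 in controls and 11.38, 11.83 and 10.99 in knockouts, so knockout 3 was barely above control 2, and the difference was 0.62 without the array labelled control distal 1. The other Frzb probe set, also above background, read 6.51, 7.45 and 6.73 in controls and 8.21, 8.7 and 7.31 in knockouts. There the groups overlapped, with a difference of 1.18. Galc, the lysosomal galactosylceramidase, read 7.29, 7.45 and 7.6 in controls and 8.17, 9.21 and 8.23 in knockouts, with differences of 1.24, 1.03 and 0.87 in the other 3 regions. Of these, only the first, in the proximal maxilla, was called (limma adjusted p = 0.02698). Its 2 other probe sets, near or below background, differed by 0.03 and -0.15. Rian, a maternally expressed long non-coding RNA of the Dlk1-Meg3 imprinted cluster, read 12.7, 12.48 and 12.16 in controls and 13.13, 12.91 and 12.87 in knockouts. This was a difference of 0.52, while its other probe sets, also above background, differed by 0.98, 0.15 and 0.1. Grin3a, an NMDA receptor subunit gene, differed by 0.65 here, with knockouts at 7.74 to 7.78 and controls at 6.79 to 7.4, and by -0.61 in the distal mandible. The remaining 5 were Spring1 (0.36), Nudt14 (0.29), Clba1 (0.33), Echdc2 (0.36) and Stk32a (above). Spring1 acts in the sterol-sensing SREBP pathway, and its probe sets disagreed, with -0.36 and -0.13 for the others. Of the genes of smallest p in the positive direction, 10 had a RefSeq promoter entry. Of these, 5 lay on chromosome 12, namely Rad51b, Nudt14, Clba1, Rian and Galc, where 3.91% of the tested genes with an entry lie. The cause was not tested.

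Of the negative side, Lix1 had the largest difference among the 12 genes of smallest p, -0.83 (SE 0.1882, adjusted p = 0.6991). Lix1, a gene first described in limb buds, read 10.17, 10.51 and 10.52 in controls and 9.02, 9.81 and 9.89 in knockouts. Kank4, which encodes an adaptor of the actin cytoskeleton, read 11.25, 11.15 and 11.23 in controls and 10.69, 10.83 and 10.75 in knockouts. The difference of Kank4 was -0.46 here and -0.54 in the proximal maxilla, where it was called with an adjusted p of 0.01275, against -0.06 and 0.04 in the mandible. The T-box gene Eomes read 6.98, 5.98 and 6.16 in controls and 5.74, 5.79 and 5.71 in knockouts. Its difference of -0.63 became -0.33 without the array labelled control distal 1, its highest value. The other 7, namely 4930562C15Rik, Cdh23, Trim43a, C430002N11Rik, Appbp2os, Pcdhb5 and Cyp2b10, had differences from -0.22 to -0.39 at control means of 5.86 to 7, near background. Of 11 genes on this side with a RefSeq promoter entry, 3 lay on chromosome 9 (Trim43a, C430002N11Rik and Eomes), where 6.05% of the tested genes with an entry lie.

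**Figure D3:**
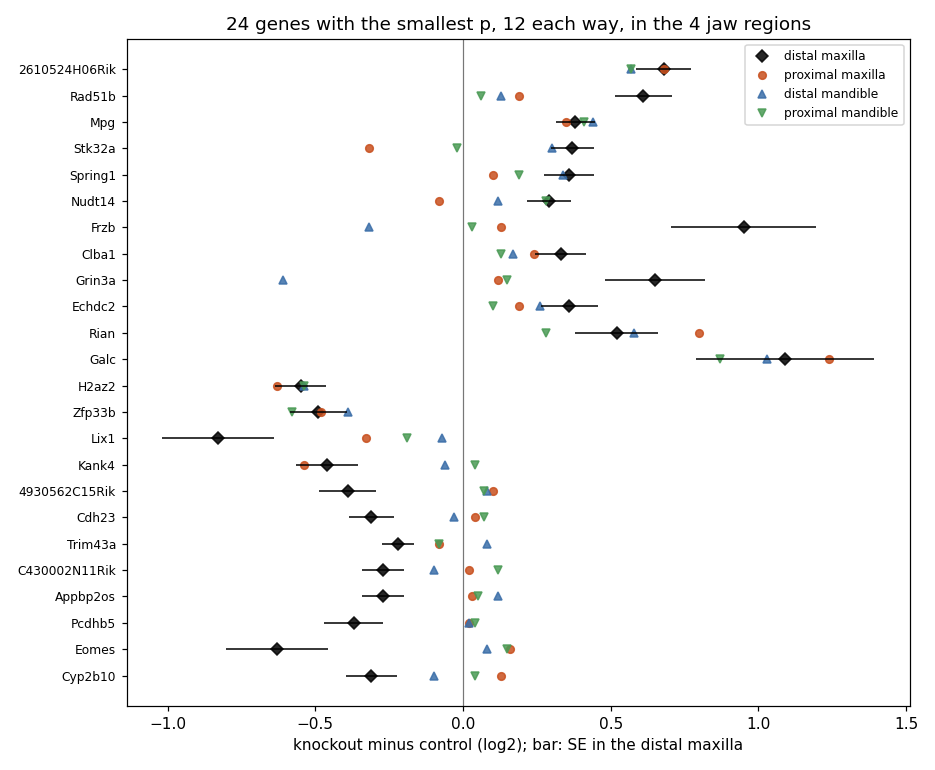
Knockout minus control in log2 units for the 24 genes of smallest p in the distal maxilla, 12 in each direction, with the value in each of the 4 jaw regions and the SE of the distal maxilla value as a bar. The markers of 2610524H06Rik, Mpg, Galc, H2az2 and Zfp33b lie on the same side of 0 in all 4 regions, while those of Rad51b, Lix1 and Frzb lie farthest from 0 in the distal maxilla, which was used to choose the genes.

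In what follows, the limma adjusted p of each gene's difference in the distal maxilla is 0.9999 unless another is given, so none of these differences passed the test. The TGF-beta pathway showed no called gene there. None of the 10 receptor genes had a p under 0.05, and their median difference was 0.02 (-0.006 with array medians subtracted) against 0.01 over all genes. The type I receptor gene Tgfbr1 read 13.11, 12.77 and 12.93 in controls and 12.67, 12.77 and 13.02 in knockouts. The betaglycan gene Tgfbr3, a co-receptor that presents ligand to Tgfbr2, had 11.24, 11.35 and 10.8 in controls and 12, 11.65 and 11.01 in knockouts, a difference of 0.42. Acvr1, a type I receptor for BMP and activin ligands, lay at 10.96 to 11.07 in controls and 10.83 to 10.94 in knockouts without overlap, a difference of -0.13.

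Among 11 genes of TGF-beta ligands and latent binding proteins the median difference was 0.13, or 0.27 without the array labelled control distal 1, and 11 values were positive. Tgfb1 read 7.72, 7.72 and 7.6 in controls and 8.84, 8.21 and 7.49 in knockouts, so knockouts 1 and 2 were high and knockout 3 was low. Tgfb2, which encodes another of the ligands, differed by 0.13 (SE 0.1541). Ltbp2, a latent TGF-beta binding protein gene of microfibrils, read 5.28, 5.26 and 5.18 in controls and 6.8, 5.41 and 5.28 in knockouts, and only knockout 1 was above background. Ltbp4 followed the same array, with 9.89 in knockout 1 against 8.75 to 9.16 in the other 5.

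The 14 Smad genes and partners had a median difference of -0.01. Skil, which encodes the SMAD co-repressor SnoN and is itself a known target of TGF-beta, read 11.9, 11.9 and 11.94 in controls and 11.59, 11.83 and 11.82 in knockouts. Its difference was -0.17 (SE 0.06526), without overlap, and -0.18 and -0.10 in the distal and proximal mandible against 0.01 in the proximal maxilla. The receptor-activated Smad2 differed by 0.12 and Smad1, which carries BMP signals, by -0.12, both with overlap. The co-repressor gene Tgif1 differed by -0.13 here, and in the proximal maxilla it fell by 0.45 (adjusted p = 0.04547).

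Of 19 known TGF-beta target genes, 2 were higher and 1 lower at an unadjusted p under 0.05, where 1.71% and 0.948% of all genes were, and the median difference was 0.03. The matricellular gene Postn (periostin) read 11.92, 11.91 and 11.51 in controls and 12.78, 12.39 and 11.82 in knockouts, a difference of 0.55 (SE 0.2237). Cdkn1a, the p21 inhibitor of cyclin-dependent kinases, read 9.49, 9.96 and 9.78 in controls and 10.34, 10.29 and 10.42 in knockouts, and every knockout lay above every control. Its difference was 0.6 (SE 0.2661), with 1.22 in the distal mandible. Ccn1, a secreted matrix-associated protein gene, differed by -0.26, and the crest factor gene Snai2 by 0.17. Smooth muscle contractile genes, which TGF-beta induces in many mesenchymal cells, had a median of -0.02 over 13 genes, or 0.06 without the array labelled control distal 1. Acta2, smooth muscle actin, read 11.1, 8.62 and 8.78 in controls and 11.5, 10.35 and 8.53 in knockouts, a spread within each group of more than 2 log2 units. Cald1 (caldesmon) was lower in each knockout, at 13.38 to 13.49 against 13.51 to 13.71.

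Of the genes that pattern the palate, Barx1, Meox2, Sim2, Tbx15, Lhx6, Lhx8 and Hand2 had differences above 1 log2 unit, with wide spreads within the groups. Over 8 genes of the posterior palate the median difference was 0.91, and 6 were positive; without the array labelled control distal 1 it was 1.75, and without control distal 3 it was 0.197. Barx1, a homeobox gene of posterior palatal and oral mesenchyme, read 10.66, 9.79 and 7.42 in controls and 11.69, 11.8 and 9.97 in knockouts, a difference of 1.86 (SE 0.709). Meox2, a homeobox gene of the posterior shelf, read 8.51, 6.16 and 6.65 in controls and 9.53, 8.68 and 7.68 in knockouts, a difference of 1.52. In both genes, the highest control was the array labelled control distal 1, and the lowest knockout was knockout 3. Tbx22, whose human homologue is mutated in X-linked cleft palate, read 11.7, 9.62 and 8.73 in controls and 10.67, 11.29 and 10.24 in knockouts, and its difference was 0.72, or 1.56 without that array. Tbx15 went from 1.1 to 2.14 in the same way, and Sim2 from 1.99 to 1.94. Their control means were higher in the proximal maxilla than in the distal maxilla, at 10.8 against 9.29 for Barx1, 7.97 against 7.1 for Meox2 and 10.79 against 10.02 for Tbx22, and the knockout distal arrays lay on the proximal side of controls 2 and 3 on the scale of 41 genes given above. That scale was set by controls 2 and 3 themselves, which by itself tends to place other distal arrays on the proximal side. The part of the position of the cut in these differences was not tested.

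For 9 genes of the anterior palate the median difference was -0.08, or -0.22 without the array labelled control distal 1. Shox2, a homeobox gene of the anterior shelf, read 10.66, 11.49 and 11.4 in controls and 12.21, 11.95 and 11.52 in knockouts, above all controls, with a difference of 0.71 (SE 0.3554). Msx1, a BMP-responsive homeobox gene of the anterior shelf and tooth mesenchyme, read 11.1, 13.34 and 13.48 in controls and 13.18, 13.29 and 13.12 in knockouts. Only the array labelled control distal 1 was low, and the difference of 0.55 changed sign to -0.22 without it. Bmp4, which Msx1 maintains in the shelf, read 11.37, 12.55 and 12.56 in controls and 11.79, 12.03 and 12.13 in knockouts, a difference of -0.18, or -0.57 without that array.

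Of 21 palate mesenchyme factors, 5 were higher at an unadjusted p under 0.05, where 1.71% of all genes were. The median was 0.25, or -0.07 without the array labelled control distal 1. Lhx6, a LIM homeobox gene of oral jaw mesenchyme, read 7.01, 7.71 and 6.77 in controls and 9.8, 10.04 and 6.56 in knockouts. Hand2, a factor of ventral mandibular mesenchyme, read 5.47, 5.06 and 5.79 in controls, at background, and 8.28, 7.68 and 4.87 in knockouts. In both, knockouts 1 and 2 were high and knockout 3 was lower than every control. Lhx8 read 7.53, 10.56 and 10.79 in controls and 11.9, 11.9 and 9.86 in knockouts, a difference of 1.6 that was 0.55 without the array labelled control distal 1. Osr2, which promotes palatal shelf growth, read 9.97, 10.11 and 9.2 in controls and 11.16, 10.64 and 9.71 in knockouts, a difference of 0.75 (SE 0.3028), or 0.85 without that array. Prrx1, a general marker of craniofacial and limb mesenchyme, differed by 0.32 (SE 0.1442).

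Among the Dlx genes, which set identity along the proximodistal axis of the arches, Dlx1 and Dlx2 had knockouts 1 and 2 above all controls and knockout 3 within the range of the controls. Dlx1 read 6.14, 6.78 and 7.02 in controls and 9.15, 9.42 and 6.55 in knockouts, a difference of 1.73 (SE 0.5782). Dlx2 read 6.59, 8.22 and 9.13 in controls and 9.86, 10.41 and 8.07 in knockouts, a difference of 1.47. The other Dlx genes, named after their values were seen, did not share this split: Dlx6 read 9.2, 9.33 and 9.53 in controls and 8.59, 8.58 and 10.32 in knockouts, and Dlx3, Dlx4 and Dlx5 differed by 0.31, 0.21 and 0.27. Without knockout 3, Dlx1, Lhx6 and Epha3 were among the 8 genes called. The Iroquois gene Irx3, by contrast, read 12.28, 12.2 and 12.14 in controls and 11.86, 11.93 and 11.72 in knockouts, with all 3 knockouts below, a difference of -0.37 (SE 0.174). Its neighbour and paralogue Irx5 read 11.13, 11.39 and 11.31 in controls and 11, 11.01 and 10.96 in knockouts, also without overlap. Hoxd1 had a difference of 2.8 (SE 1.032). Hox genes mark more caudal tissue than the maxilla. The control values of Hoxd1, 4.93, 6.15 and 4.34, lay around background, and knockouts 1 and 2 read 9.45 and 8.75 while knockout 3 read 5.63. The difference of Hoxd1 was 3.98 in the proximal maxilla (adjusted p = 0.03328). Pitx1, which specifies the lower jaw and hindlimb, read 10.45, 9.03 and 7.76 in controls and 10.16, 9.97 and 10.14 in knockouts, a difference of 1.01, or 1.69 without the array labelled control distal 1. Among genes of the nasal and eye region, the small heat shock protein gene Cryab read 7.77, 7.7 and 7.18 in controls and 8.78, 9.07 and 8.02 in knockouts, without overlap, while Pax6 and Pax7 differed by 0.83 and -0.49 with overlap.

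**Figure D4:**
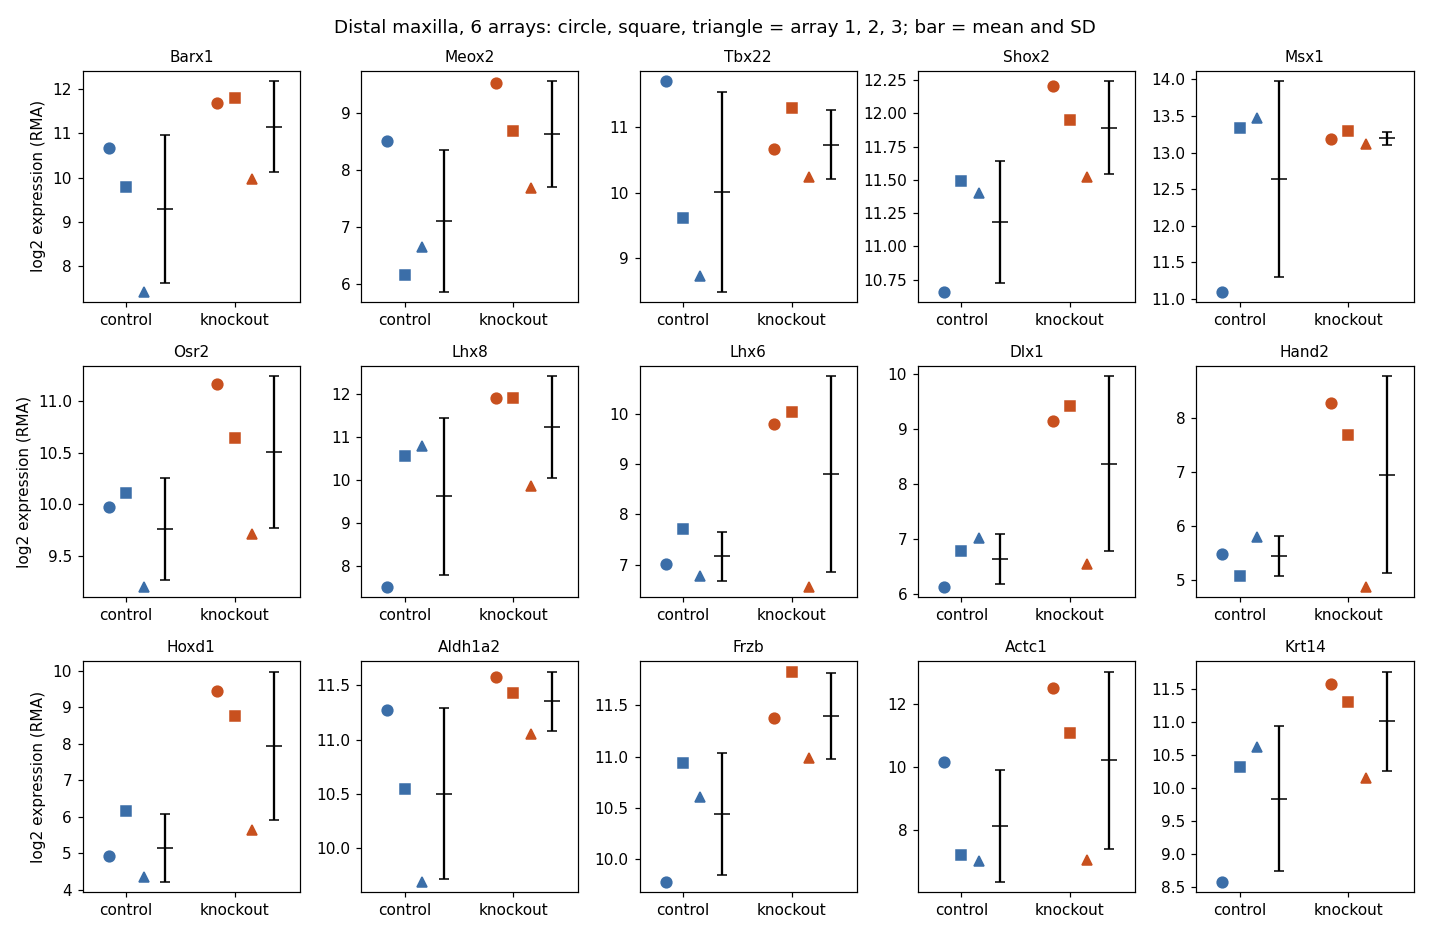
Log2 RMA expression of 15 palate, jaw, muscle and epithelial genes in the 6 distal maxilla arrays, drawn as controls in blue and knockouts in orange, with array numbers 1, 2 and 3 as circle, square and triangle and the mean and SD beside each group; the y axes are cropped and differ between panels. Knockout 3 (triangle) lies with the controls for Lhx6, Dlx1, Hand2, Hoxd1 and Actc1, and control 1 (circle) lies apart from controls 2 and 3 for Tbx22, Msx1, Lhx8 and Actc1.

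In signalling pathways outside TGF-beta the list medians lay between -0.02 and 0.16, and those of BMP antagonists, FGF, Hedgehog and Wnt antagonist genes changed sign without the array labelled control distal 1. Of 19 Wnt antagonists and targets, Frzb (by its higher probe set only) and Lgr5 were above controls in all knockouts, as were 4.07% of all genes. Lgr5, an R-spondin receptor and Wnt target, read 10.25, 10.12 and 8.86 in controls and 10.56, 10.83 and 10.46 in knockouts, a difference of 0.87 (SE 0.2798). The list's median went from 0.12 to -0.14 without that array. Sfrp2, another secreted Wnt antagonist, differed by 0.49. For 14 Wnt ligands the median was 0.16, or 0.01 without the array, with Wnt7a at -0.17 and Wnt9a at 0.20.

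In the retinoic acid pathway, 2 of 13 genes were higher at an unadjusted p under 0.05, against 1.71% of all genes, and the median difference was 0.15, or 0.4 without the array labelled control distal 1. Aldh1a2, the main retinaldehyde dehydrogenase of embryonic mesenchyme, read 11.27, 10.55 and 9.69 in controls and 11.58, 11.43 and 11.05 in knockouts, a difference of 0.85 (SE 0.331), or 1.23 without the array labelled control distal 1. Aldh1a1 read 5.75, 5.51 and 5.34 in controls, at background, and 8.86, 7.31 and 4.97 in knockouts. Cyp26a1, which breaks down retinoic acid, read 7.75, 7.69 and 8 in controls and 8.64, 8.89 and 7.85 in knockouts. Rdh10, which forms retinaldehyde, lay lower in every knockout, with a difference of -0.17. Among 17 FGF genes, Fgf18, a ligand of skeletal and palatal mesenchyme, read 8.6, 7.68 and 7.55 in controls and 9.26, 8.4 and 8.29 in knockouts, a difference of 0.71 (SE 0.2989). Fgf3 differed by 0.23.

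None of 12 Hedgehog pathway genes had a p under 0.05, and their median went from 0.12 to -0.02 without the array labelled control distal 1. Shh, the ligand made by oral epithelium and palatal rugae, read 7.62, 9.71 and 10.1 in controls and 10.32, 10.89 and 9.29 in knockouts. Its targets Gli1 and Ptch1 differed by 0.39 and 0.27. The 6 BMP ligand genes had a median of -0.02, or -0.16 without that array, and Bmp5 was below controls in every knockout, at 9.28 to 9.35 against 9.41 to 9.6. Of 16 Notch genes, 3 had all knockouts above all controls, where 4.07% of all genes did. Lfng, which encodes a glycosyltransferase of Notch receptors, had knockouts at 8.24 to 8.76 and controls at 8.05 to 8.15. The ligand genes Jag2 and Dll4 were also above, with differences of 0.23 and 0.11.

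Several genes of skeletal muscle had higher values in knockouts 1 and 2 than in knockout 3. For 27 sarcomere and contraction genes the median difference was 1.14, 26 were positive, and none had a p under 0.05. Actc1, cardiac actin of early muscle, read 10.18, 7.22 and 7.02 in controls and 12.51, 11.08 and 7.08 in knockouts, a difference of 2.08 (SE 1.14). The embryonic myosin gene Myh3 read 8.55, 5.9 and 5.77 in controls and 10.73, 9.31 and 5.78 in knockouts, and Myog, the myogenin gene, 8.44, 6.47 and 6.13 against 10.2, 9.1 and 6.1. In all 3 genes, the array labelled control distal 1 was the highest control. The median of the list was 0.295 without knockout 1 and 1.692 without knockout 3, and in the proximal maxilla Myh3 rose by 4.1 (adjusted p = 0.04854). The 16 myogenic regulators had a median of 0.45. Tbx1, a T-box gene of head muscle progenitors, read 7.89, 8.07 and 7.8 in controls and 8.75, 8.65 and 7.85 in knockouts, a difference of 0.5 (SE 0.1837). Cdh15, M-cadherin, read 6.57 to 6.99 in controls and 7.23 to 7.97 in knockouts without overlap, and Mef2c differed by 0.55. Muscle lies outside the Wnt1-Cre lineage, and the part of muscle content in the other differences that are high in knockouts 1 and 2 was not tested.

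Each of 10 genes of glia and Schwann cell precursors had a positive difference, with a median of 0.57, and 1 had a p under 0.05 (1.71% of all genes were higher at that p). Egfl8 read 8.16, 8.3 and 7.88 in controls and 8.96, 8.85 and 8.48 in knockouts, a difference of 0.65 (SE 0.2354) without overlap. Ednrb, the endothelin receptor of crest-derived glia and melanocytes, read 9.58, 9.08 and 7.93 in controls and 9.98, 9.85 and 9.37 in knockouts, and Cdh19 differed by 0.79. For 19 neuron genes the median was 0.16 with 14 positive, or 0.33 with 19 positive without the array labelled control distal 1. Sncg, gamma-synuclein of peripheral neurons, read 6.74, 6.66 and 6.34 in controls and 7.88, 7.48 and 7.15 in knockouts, a difference of 0.92, while in the proximal maxilla it rose by 4.65 (adjusted p = 6.512e-05). Nefl, a neurofilament gene, differed by 1.06 here and rose by 3.9 in the proximal maxilla (adjusted p = 0.007839).

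Other cell types gave the following values. The 20 epithelial genes had a median of 0.12, or -0.01 without the array labelled control distal 1, in which the basal keratin genes were lowest: Krt14 read 8.58, 10.32 and 10.61 in controls and 11.57, 11.29 and 10.15 in knockouts, and Krt5 differed by 1.07. All 9 erythroid genes had negative differences, with a median of -0.38 that was -0.093 without knockout 1. Hbb-bh1, an embryonic globin, read 13.41, 13.6 and 13.85 in controls and 11.78, 13.7 and 13.26 in knockouts, Slc4a1 differed by -0.58 and Hba-x by -0.25. Of 16 endothelial genes, Sox17 differed by -0.37 and Erg by -0.35, and the median was -0.02, or 0.17 without the array labelled control distal 1. The 16 macrophage genes had a median of 0.08, or 0.29 without that array, with Ctss at 0.35 and C1qa at 0.36.

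For skeletal and connective tissue genes, several medians moved without the array labelled control distal 1. Over 16 cartilage genes the median was 0.09, or 0.27 without it, and none had a p under 0.05. Sox9, the master regulator of cartilage, read 11.35, 11.06 and 11.16 in controls and 10.66, 10.73 and 11.15 in knockouts, and its partner Sox5 differed by -0.25. For 8 osteoblast genes the median was 0.3, or 0.11 without that array, and Alpl, alkaline phosphatase of bone-forming cells, differed by 0.41 (SE 0.4369). Tendon genes had a median of -0.06 over 9 genes, or 0.18 without that array, with Scx, the tendon progenitor factor, at -0.37 and Kera at 0.96. Of 30 extracellular matrix genes, Adamts20, a protease that processes versican, read 12.62, 12.47 and 12.85 in controls and 12.09, 12.37 and 12.36 in knockouts, a difference of -0.37 without overlap, and in the proximal maxilla it fell by 1.05 (adjusted p = 0.0115). Adamts6 differed by -0.4 (SE 0.1609), or -0.19 without the array labelled control distal 1. P4ha3, a collagen prolyl hydroxylase subunit, read 10.36, 10.59 and 10.39 in controls and 9.83, 9.62 and 10.39 in knockouts, and in the proximal maxilla it fell by 1.42 (adjusted p = 0.01444).

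Of 26 guidance genes 2 were higher at an unadjusted p under 0.05, against 1.71% of all genes, and the median was 0.04. Epha3, a receptor for ephrin-A ligands, read 11.74, 11.25 and 10.91 in controls and 12.59, 12.55 and 11.36 in knockouts, a difference of 0.86 (SE 0.2638), or 1.08 without the array labelled control distal 1. Slit3 differed by 0.41 (SE 0.1606), and its receptor gene Robo1 by -0.22. The 23 cell cycle genes had a median of -0.03 with no p under 0.05. Ccnd2, cyclin D2, read 13.43 to 13.49 in controls and 13.55 to 13.76 in knockouts, above all controls, while the checkpoint kinase gene Bub1 differed by -0.18. Of 16 hypoxia and glycolysis genes, 4 had knockouts above all controls, where 4.07% of all genes did, and the median was 0.11. The largest of the 4 was Ankrd37, a target of HIF1, with 8.41, 8.31 and 8.55 in controls and 8.67, 8.66 and 8.77 in knockouts, and Ldha, lactate dehydrogenase A, differed by 0.14. Among 19 imprinted genes the median was 0.09, and Dlk1, which lies in the same cluster as Rian, differed by 0.76 (SE 0.3725) with overlap. The immediate early gene Ier3 differed by 0.25 and the sterol synthesis gene Cyp51 by -0.25.

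**Figure D5:**
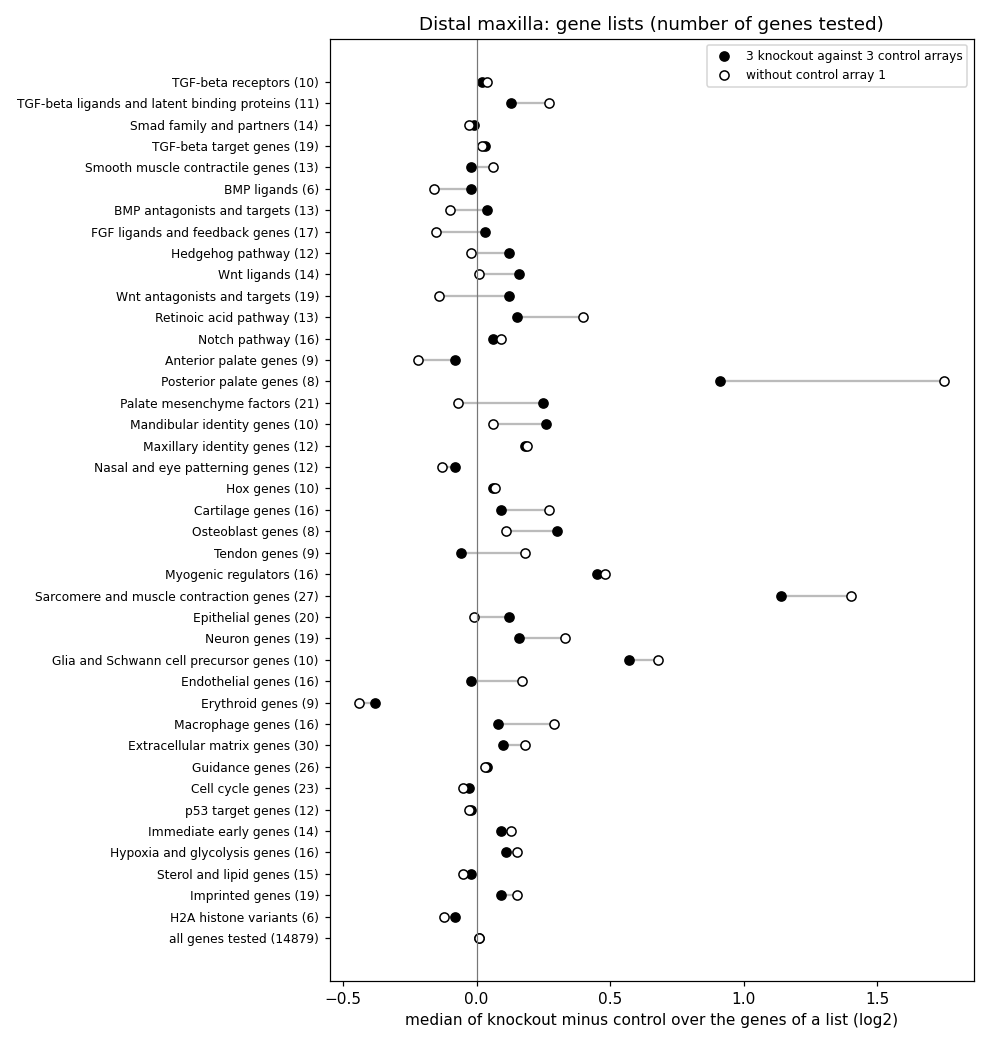
Median of knockout minus control in log2 units over the tested genes of each list, with the number of genes in brackets, from all 6 distal maxilla arrays (filled) and without the array labelled control distal 1 (open). The median moves from 0.91 to 1.75 for posterior palate genes and from 1.14 to 1.40 for sarcomere genes, and it crosses 0 for palate mesenchyme factors (0.25 to -0.07).

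Whether the effect of the knockout differed between the distal and the proximal maxilla was tested as the difference of the 2 differences. The test called 6 genes, or 0.0403%: the effect in the distal end was more positive for Umodl1 and Stk32a (0.0134%) and more negative for Ppp1r1c, Pou4f1, Ppp1r17 and Prrxl1 (0.0269%). At an unadjusted p under 0.05 there were 1501 genes (10.1%), 5.59% more positive and 4.5% more negative. The homeobox genes Pou4f1 and Prrxl1 act in sensory ganglia. In the distal maxilla the last 4 genes stayed near background in all 6 arrays. Pou4f1 read 5.3, 5.38 and 4.8 in distal controls and 5.53, 5.45 and 5.29 in distal knockouts, against 5.26, 5.25 and 5.43 in proximal controls and 11.41, 11.29 and 8.5 in proximal knockouts. Its difference of effects was -4.82 (SE 0.6764, limma adjusted p = 0.008428). Ppp1r1c, a phosphatase inhibitor gene, read 5.67 to 5.98 in the 6 distal arrays and 12.45, 12.16 and 9.52 in the proximal knockouts, a difference of effects of -5.78 (SE 0.7159, adjusted p = 0.002936). In the proximal mandible these genes went the other way. Pou4f1 read 8.88, 8.37 and 8.05 there in controls and 5.14, 5.51 and 5.44 in knockouts, a difference of -3.07 (limma adjusted p = 0.01854). Ppp1r1c differed there by -3.03 (limma adjusted p = 0.02144), Ppp1r17 by -2.98 and Prrxl1 by -1.89, the latter genes uncalled. The part of ganglion content of the arrays in these differences was not tested.

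Umodl1 read 4.98, 6.08 and 5.5 in distal controls and 6.36, 5.84 and 6.92 in distal knockouts, with overlap, and 6.58, 6.06 and 5.9 against 4.81, 5.08 and 4.78 in the proximal arrays. Its difference of effects was 2.14 (SE 0.3648, adjusted p = 0.04142). Stk32a was higher in the distal knockouts, by 0.37, and lower in the proximal ones, by -0.32 (adjusted p = 0.023), where controls read 5.78, 5.87 and 5.85 and knockouts 5.38, 5.61 and 5.55. Its difference of effects was 0.69 (SE 0.1044, adjusted p = 0.01531), although all its values lay close to background. The comparison uses the 2 control arrays numbered 1, which went against their labels: without them 2 genes were called, Stk32a and Ppp1r1c, with adjusted p of 0.0327 each. Without the knockout proximal 3 array, in which Pou4f1 and Ppp1r1c were lowest of the proximal knockouts, 1029 genes were called. In deviations from the mean of all arrays, it correlated at 0.205 with its own group and 0.378 with the distal knockouts. No other knockout maxilla array had the higher value for the other end, while control proximal 1 and control distal 1 and 2 did.

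Against the distal mandible, the matching end of the lower jaw, no gene passed the limma test of the difference (0%), while 653 genes had an unadjusted p under 0.05 (4.39%), 1.85% more positive and 2.53% more negative in the maxilla. The contrast of smallest p toward the maxilla was that of Grin3a at 1.26 (SE 0.2403, adjusted p = 0.7633). Toward the mandible, Ccnb3, a cyclin gene, had a contrast of -2.28 (SE 0.4734, adjusted p = 0.7633), as it differed by 2.08 in the distal mandible and by -0.2 in the distal maxilla. Nr2f2, a nuclear receptor gene of arch mesenchyme, differed by 1.52 in the distal mandible and by -0.06 here, and the integrin gene Itga4 by 1.37 and -0.01. Ccnb3, Nr2f2 and Itga4 were each called in the distal mandible (limma adjusted p = 0.01403). Against the mean effect of the other 3 regions, again no gene was called (0%), and 351 had an unadjusted p under 0.05 (2.36%), 1.12% more positive and 1.24% more negative. The smallest p were those of Stk32a (contrast 0.38, SE 0.08522), Rad51b (0.49), 4930562C15Rik (-0.47), Drc3 (0.37) and Umodl1 (1.23), each with an adjusted p of 0.9994.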

How the data were processed

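Biotin-labelled cRNA of the distal maxilla and 3 other jaw regions was measured on 24 arrays with 45101 probe sets. The deposited table holds log2 values made by the authors with RMA, as named in the submitters' processing notes, with the version not given in the sources used here. Of the probe sets, 34945 have 1 gene symbol in GEO's platform annotation, 932 several and 9160 none, and 64 are controls. Only those with 1 symbol were used, for 18193 genes, and the probe set with the highest mean stood for a gene with several (9010 genes). The 14879 genes above their array's 30th percentile in at least 3 arrays were tested with limma 3.58.1 in R 4.3.3 (lmFit and eBayes, 8 group means, 16 residual degrees of freedom), with Benjamini-Hochberg adjustment. Tested on simulated data with 50 changed genes of each size among 14879, it recovered 62% of log2 changes of 0.5 and 88% of changes of 1 in the distal maxilla. The simulation gave every array independent normal noise, with the same spread for a gene in all arrays. It held no array that went against its label, so these shares do not give the recovery in the real arrays.

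The rule for named genes takes Tgfbr2, the genes called and then those of smallest p up to 12 each way, likewise 4 each way in each comparison of effects, and up to 6 of smallest p from each list. Cell type marker genes were named for their defining role. The members, the 41 lists (607 genes, 551 tested) and the tests were chosen with earlier results of these data known. For array numbers, the deviations of same-numbered control and knockout arrays correlated at 0.188, 0.215 and 0.115. Those of differently numbered arrays ran from -0.218 to 0.104. The labels name no shared litter or day. The main fits held no pairing, and fits with the number as a block were run as alternatives. Any 2 distal maxilla arrays differed by a root mean square of 0.227 or more, so none was a copy. Other alternatives changed the scaling, filter, probe set rule, prior and arrays used.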

Additional observations from a re-analysis of the deposited data

Results flagged for a closer look

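In 6 genes the effect of the knockout differed between the distal and the proximal maxilla by the limma test of the difference itself (adjusted p under 0.05). The differences of effects, distal minus proximal in log2 units, were 2.14 for Umodl1, 0.69 for Stk32a, -5.78 for Ppp1r1c, -4.82 for Pou4f1, -4.76 for Ppp1r17 and -3.76 for Prrxl1. The 4 negative values come from the proximal end: Ppp1r17 read 5.67 to 6.57 and Prrxl1 5.98 to 6.38 in the distal arrays, and the proximal knockouts averaged 10.75 ± 1.68 and 10.22 ± 1.62. In the proximal mandible these 4 genes were lower in the knockouts, and the part of ganglion content of the arrays was not tested. Stk32a is the gene of the 6 whose distal groups did not overlap in the positive direction, at a level near background.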

How the results depend on the processing

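The count of 3 genes in the distal maxilla was 1 with probe sets averaged or tested singly, 14 with array weights, and 0 with only the 6 distal or the 12 maxilla arrays. Leaving out an array of the comparison gave 0 to 8. With the array number as a replicate block, the pairing gave 4 genes over all arrays (the same 3 and Mpg), 3 with a random block and 0 in the 6 arrays alone. Over all 19 alternatives the difference of 2610524H06Rik ran from 0.632 to 0.709 (adjusted p 0.000334 to 0.985), that of Rad51b from 0.353 to 0.674 and that of H2az2 from -0.737 to -0.487. For the difference between the ends of the maxilla, 6 genes became 3 with cyclic loess, 2 with the 50th percentile filter, 1130 with array weights, 3 with the fixed replicate block, 15 with the random replicate block, 2 without both control maxilla arrays numbered 1 (added after seeing the data), and 2 to 1029 leaving out an array. The contrast with the other 3 regions gave 0 to 3 leaving out an array, 3 without knockout maxilla proximal 3.

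Signs changed for Spring1 (-0.043) and Tgfbr2 (-0.003) with averaged probe sets. Leaving out 1 array at a time, the value ran from -0.04 to 0.442 for Tgfbr2, from -0.058 to 1.43 for Acta2, from -0.217 to 0.976 for Msx1, from -0.573 to 0.019 for Bmp4 (also 0.017) and from -0.07 to 0.037 for H2az1 (also 0.014). The added setting gave Msx1 the same -0.217. By scaling, the list medians of TGF-beta receptors (-0.006 with array medians subtracted) and FGF genes (-0.001 with cyclic loess) changed sign. The causes of these changes were not tested.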
